A study of Mus musculus with 6 samples.

Results

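The genes described here encode enzymes and secreted or surface mediators through which regulatory T cells (Treg) restrain other immune cells: Nt5e, Entpd1, Fgl2, Lrrc32, Il10, Ebi3, Areg and Penk. They were taken by name, with every probe set whose only annotated symbol was among the 8. Of the 8 genes, 6 had such a probe set, out of 12393 genes measured in all: Nt5e, Il10, Ebi3 and Penk with 1 each, and Entpd1 and Fgl2 with 2 each, together 8 probe sets of 22626. Lrrc32 (GARP) and Areg (amphiregulin) had none and were not analysed here. RNA came from mouse Treg sorted as CD4+YFP+, on a C57BL/6 background, with 1 array for each of 3 control and 3 USP7-titled samples. Control arrays bear B6_WT titles and the genotype Foxp3cre, in which Cre recombinase is made under the Foxp3 gene. The series text names the comparison genotype as fl-Usp7/Foxp3cre, a loss of the deubiquitinase Usp7 in Treg, but the genotype field of those arrays reads fl-HDAC11/Foxp3cre, so the group is called here by its titles. All 6 samples thus carry Foxp3cre, and Cre is meant to act in cells that switch Foxp3 on. Age is not stated, and nothing says whether samples came from separate animals, so the p-values describe only the spread among these 6 samples, which may be technical.

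CD39 (Entpd1) and CD73 (Nt5e) stand in sequence on the Treg surface: CD39 cuts ATP and ADP to AMP, and CD73 cuts AMP to adenosine, which quiets T cells through adenosine receptors. IL-10 (Il10) is a cytokine that damps macrophages and dendritic cells, and IL-35 is a pair of chains encoded by Ebi3 and Il12a. Fgl2 is a secreted fibrinogen-like protein that acts through Fc gamma receptors, and Penk encodes proenkephalin, the precursor of the enkephalin opioid peptides.

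Values are log2 expression of a probe set as deposited, and a change is the USP7-titled mean minus the control mean. Where a gene has several probe sets, the brightest over all arrays stands for it. Array medians ran from 7.91 to 7.96. Pearson's r between arrays, over gene probe sets, was at least 0.995 within controls, at least 0.992 within USP7-titled arrays and at most 0.975 between groups. Usp7 fell by 1.01 on the log2 scale and Foxp3 by 5.98, and Hdac11, a dim gene, by 0.58 (limma adjusted p = 1.32e-06, 6.71e-10 and 0.0154). T cell markers were bright: Cd4 stood at 12.82 in the control group and at 12.83 in the USP7-titled group, and Cd3e at 12.51 and 12.40. Both were picked from 11 measured Treg and T cell markers, of which 7 fell and 0 rose by limma (median change -0.12). The female transcript Xist stood at 12.50 in the control group and 5.30 in the other, and the Y-linked Eif2s3y 4.50 and 10.15, so for every result below sex cannot be told apart from group.

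The mediators did not move as a block. Of the 6 measured genes, Nt5e and Fgl2 fell, Ebi3, Il10 and Penk rose, and Entpd1 did not pass the test (limma, threshold of 0.05 on the adjusted p). That is 5 of 6 called, where 32.9% of all genes were called, 17% as higher and 15.9% as lower. The members were chosen with earlier results of these data known, so their share cannot be tested against that of all genes. In the same 5 genes the 3 control and 3 USP7-titled values did not overlap, which held for 45.6% of all genes. Nt5e and Fgl2 were among the 1.23% of genes called and at least 2-fold lower, and Ebi3 was among the 3.12% called and at least 2-fold higher. By probe set, 6 of 8 passed, against 33.3% of all gene probe sets. With arrays scaled to hybridization spikes instead of used as deposited, 75.9% rather than 51.5% of called genes were higher and the median change of all genes moved from -0.05 to 0.11; the same 5 members passed there in the same directions.

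**Figure D1:**
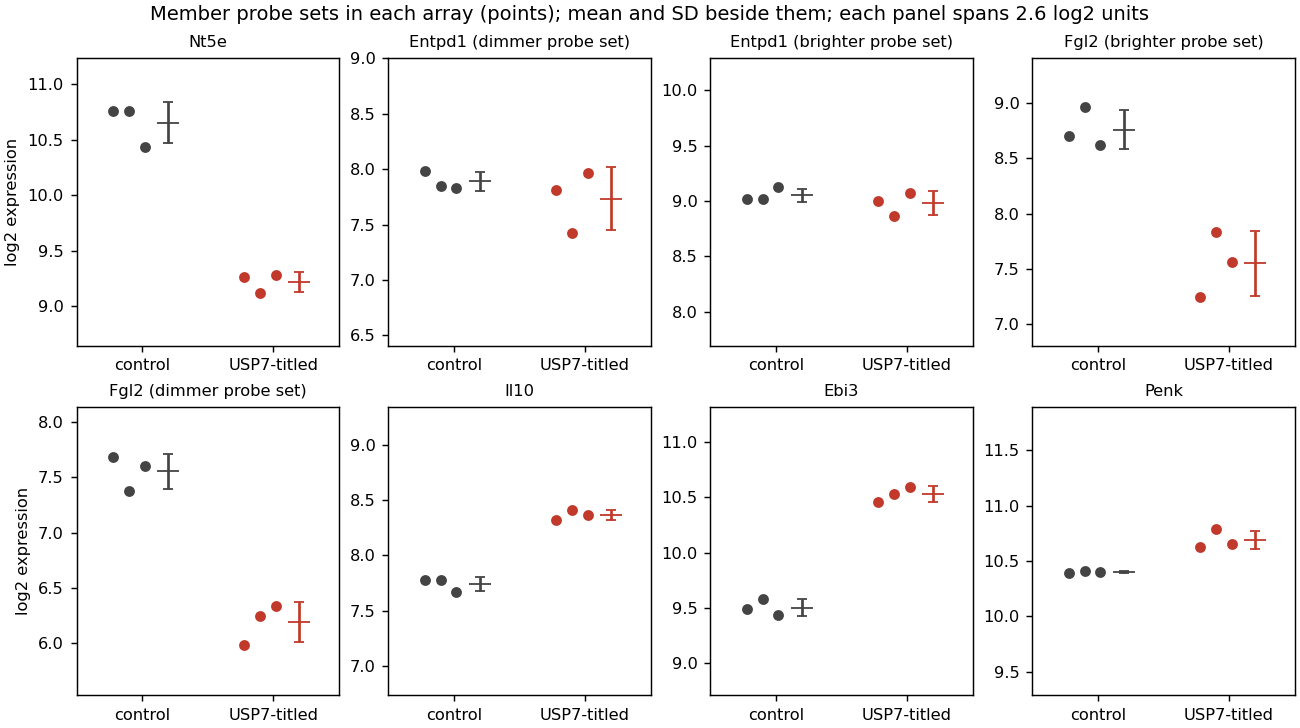
Log2 expression (vertical axes, each spanning 2.6 units) of the 8 member probe sets in 3 control arrays (grey points) and 3 USP7-titled arrays (red points), with the group mean and SD beside the points. Nt5e and both Fgl2 probe sets are lower in each USP7-titled array than in any control, Il10, Ebi3 and Penk are higher, and both Entpd1 probe sets overlap.

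Promoter sequence is shown for the genes with the largest falls and the largest rise. These are the 250 bases upstream of the RefSeq start (build GRCm38.p6), all on the plus strand, at chr9:88327359-88327608 for Nt5e, chr5:21372423-21372672 for Fgl2 and chr17:55952373-55952622 for Ebi3. Capitals mark letters matching any of 4 motifs searched on both strands: GTAAACA (forkhead, the family of Foxp3), TGANTCA (AP-1), CACGTG (E-box) and TTCNNNGAA (GAS, bound by STAT factors).
Nt5e: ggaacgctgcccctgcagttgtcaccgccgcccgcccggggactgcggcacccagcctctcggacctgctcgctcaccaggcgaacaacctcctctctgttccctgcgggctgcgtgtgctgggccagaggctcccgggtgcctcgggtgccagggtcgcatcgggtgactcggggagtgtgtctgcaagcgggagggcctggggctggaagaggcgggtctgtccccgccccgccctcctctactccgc
Fgl2: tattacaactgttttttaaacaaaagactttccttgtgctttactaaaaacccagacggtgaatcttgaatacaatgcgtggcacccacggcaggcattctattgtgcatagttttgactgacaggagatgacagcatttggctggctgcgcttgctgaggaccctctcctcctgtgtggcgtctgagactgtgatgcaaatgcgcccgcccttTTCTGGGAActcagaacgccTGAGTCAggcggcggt
Ebi3: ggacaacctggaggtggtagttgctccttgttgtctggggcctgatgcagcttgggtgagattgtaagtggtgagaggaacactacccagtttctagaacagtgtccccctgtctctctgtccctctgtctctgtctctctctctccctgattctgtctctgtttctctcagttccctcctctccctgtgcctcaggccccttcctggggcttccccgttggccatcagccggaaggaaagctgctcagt
The Fgl2 window held an AP-1 match that starts 16 bases upstream of the start site and a GAS match that starts 36 bases upstream, and these matches do not overlap. Among all 32851 windows of that length, 6.75% held the AP-1 letters and 7.02% the GAS letters. The Nt5e and Ebi3 windows held no match to any of the 4 motifs, and the forkhead letters, present in 3.17% of all windows, were in none of the 3. The E-box letters stood in 6.02% of windows. GC content was 72.0% for Nt5e, 49.6% for Fgl2 and 56.0% for Ebi3. A match is a run of letters and does not show binding.

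Nt5e, which makes the enzyme CD73, had the largest fall among the measured mediators, with an interval that overlaps that of Fgl2. Controls read 10.76, 10.76 and 10.44, and USP7-titled arrays 9.26, 9.11 and 9.28. The lowest control lay 1.16 above the highest USP7-titled array. The group means were 10.65 ± 0.19 and 9.22 ± 0.09 (SD, n = 3 each). The change of -1.44 (SE 0.11, 95% interval -1.67 to -1.20) amounts to 37.0% of control (limma adjusted p = 2.03e-06). Of the 12393 genes, 35 fell further. In bulk samples such as these, fewer cells expressing a gene and less RNA per cell cannot be told apart.

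Entpd1, which makes CD39, the enzyme upstream of CD73, gave no call. By the brighter probe set the control arrays stood at 9.02, 9.02 and 9.12, against 9.003, 8.86 and 9.07 in the USP7-titled ones. The ranges overlap, and the change was -0.08 (SE 0.10, 95% interval -0.30 to 0.15, limma adjusted p = 0.619). Its dimmer probe set also overlapped, at 7.99, 7.85 and 7.83 against 7.81, 7.42 and 7.97, a change of -0.15 (95% interval -0.49 to 0.18, limma adjusted p = 0.48). Under spike scaling the brighter probe set stood at 0.08 rather than below 0, again without passing. A p that misses the threshold does not show that Entpd1 was equal in both groups, and the interval of the brighter probe set reaches -0.30.

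The enzymes of the pair were also compared within arrays. Subtracting Entpd1 from Nt5e within each array gave 1.74, 1.74 and 1.32 for the controls, against 0.26, 0.25 and 0.20 for the USP7-titled arrays. These differences lay apart in all 6 arrays, with a shift of -1.36. Since Entpd1 changed by only -0.08, the shift largely repeats the Nt5e change of -1.44 and is not a separate result. The two-sided exact permutation p was 0.1, the smallest that 3 against 3 arrays allow. Only the shift can be read, since the size of such a difference within an array also depends on the probes.

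**Figure D2:**
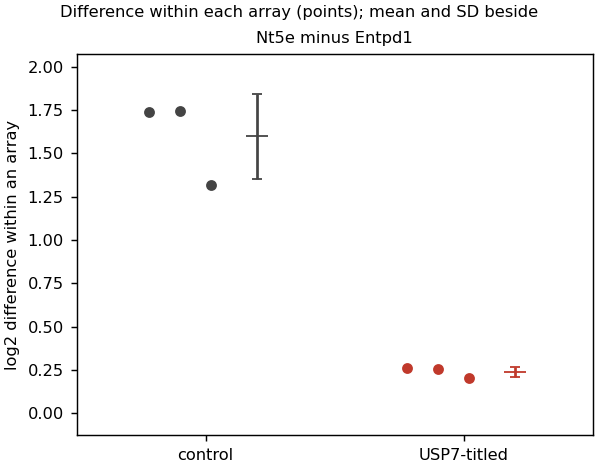
Log2 difference of Nt5e minus Entpd1 within an array (vertical axis), in 3 control (grey) and 3 USP7-titled arrays (red), with group mean and SD beside the points. The values span 1.32 to 1.74 for the control group and 0.20 to 0.26 for the USP7-titled group.

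Of 29 measured genes of extracellular nucleotides and adenosine on a list of 40, which includes Nt5e and Entpd1, 4 rose, 5 fell and 20 gave no call. These shares are close to those over all genes (17% higher, 15.9% lower), and the list had a median change of -0.05, as over all genes. Under spike scaling 6 rose and 2 fell. P2rx4, an ATP-gated channel, fell by 0.71 (SE 0.09, limma adjusted p = 0.000184), and its other probe set fell by 0.74. Pnp, which breaks down inosine, the product of adenosine deamination, rose by 0.84 (SE 0.10, limma adjusted p = 7.93e-05). P2ry14, a receptor for UDP-sugars, was dim, at the 19.3rd percentile of probe set brightness in controls, and rose by 1.302 (SE 0.20, limma adjusted p = 0.000442). Adk, which returns adenosine to AMP inside the cell, rose by 0.65 (SE 0.12, limma adjusted p = 0.00141), but 2 of its 4 probe sets read -0.20 and -0.24, and the average of its probe sets did not pass (0.19, limma adjusted p = 0.183).

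Fgl2 fell by both of its probe sets. The brighter stood at 8.70, 8.96 and 8.62 in the control arrays, against 7.25, 7.84 and 7.56 in the USP7-titled ones. The groups were 0.78 apart at their nearest values, and the USP7-titled arrays spread more, with an SD of 0.29 against 0.18. The mean went from 8.76 to 7.55, a change of -1.21 (SE 0.16, 95% interval -1.56 to -0.86) to 43.2% of control (limma adjusted p = 0.000151). The dimmer probe set read 7.68, 7.38 and 7.60 against 5.99, 6.25 and 6.34, and changed by -1.36 (SE 0.14, limma adjusted p = 4.65e-05). The lowest USP7-titled value was that of replicate 1 in each.

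Among 9 measured relatives and receptors of Fgl2, which includes it, 2 rose and 1, Fgl2 itself, fell, with a median of 0.06. Among all genes 17% rose and 15.9% fell. Fcgr3, an activating Fc gamma receptor found on myeloid and NK cells, had group means of 6.63 ± 0.26 and 8.17 ± 0.24 (SD, n = 3 each) and rose by 1.55 (SE 0.16, limma adjusted p = 3.20e-05). Fcgr4, a related receptor, was dim, at the 18.9th percentile in controls, and rose by 0.49 (SE 0.14, limma adjusted p = 0.0179). It did not pass without control replicate 1 (0.50, limma adjusted p = 0.0527), control replicate 3 (0.43, limma adjusted p = 0.0712) or USP7-titled replicate 1 (0.39, limma adjusted p = 0.0519). Without USP7-titled replicate 1 the list had 1 rise and 2 falls.

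**Figure D3:**
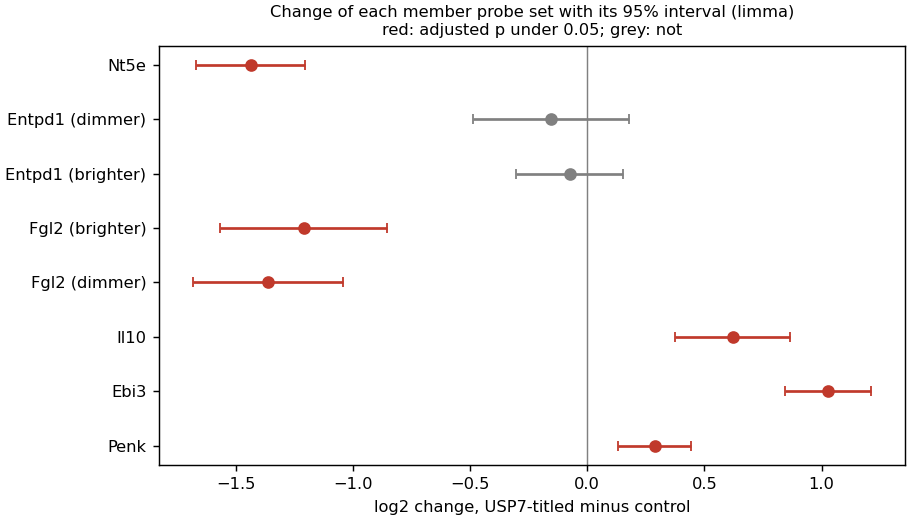
Log2 change, USP7-titled minus control, of the 8 member probe sets (points) with 95% intervals from limma over all gene probe sets (3 arrays per group); red marks an adjusted p under 0.05 and grey the others. Nt5e (-1.44) and Fgl2 (-1.21 and -1.36) lie left of 0, Il10 (0.62), Ebi3 (1.03) and Penk (0.29) lie right of it, and both Entpd1 intervals cross it.

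Ebi3, the chain that IL-35 shares with IL-27, showed the largest rise of the mediators. Controls read 9.49, 9.58 and 9.43, and USP7-titled arrays 10.46, 10.53 and 10.60. All USP7-titled values lay at least 0.87 above all controls. The group means were 9.50 ± 0.08 and 10.53 ± 0.07 (SD, n = 3 each), which is a rise of 1.03 (SE 0.08, 95% interval 0.84 to 1.21), or 2.04-fold (limma adjusted p = 4.75e-06). Il12a, the other chain of IL-35, was dim, at the 24.8th percentile in controls, and its mean was 6.17 in each group, a change of -0.0018 (SE 0.14, limma adjusted p = 0.994). Without a detection value, that reading of Il12a may be background, so no difference of the chains is given.

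In the IL-12 family and its receptors, 4 of 13 measured genes rose, Ebi3 among them, 4 fell and 5 gave no call. The median was -0.02, and over all genes 17% rose and 15.9% fell. Il6st, the gp130 chain used by receptors for IL-6, IL-27 and IL-35, fell by 1.09 (SE 0.08, limma adjusted p = 1.46e-06), and its other probe sets fell by 1.01 and 0.98. Il27ra, the partner of gp130 in the IL-27 receptor, fell by 0.86 (SE 0.08, limma adjusted p = 8.53e-06). The kinase Jak1, which binds these receptors, fell by 0.60, and by 0.57 and 0.39 by its other probe sets. Il12rb2, a chain of the IL-12 receptor, rose by 0.62 (SE 0.19, limma adjusted p = 0.0235). That call was lost without control replicate 2 (0.60, limma adjusted p = 0.0747), control replicate 3 (0.53, limma adjusted p = 0.0847) or USP7-titled replicate 1 (0.40, limma adjusted p = 0.0619). The family as a whole had 2 rises without control replicate 2 or USP7-titled replicate 1.

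For Il10 the rise was smaller in size than for Ebi3, and the difference between them was not tested. Controls read 7.78, 7.78 and 7.67, and USP7-titled arrays 8.31, 8.41 and 8.36. The values within each group were close, with SDs of 0.06 and 0.05, and the groups lay 0.54 apart. The change was 0.62 (SE 0.11, 95% interval 0.38 to 0.86), or 1.54-fold (limma adjusted p = 0.00108).

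Of 8 measured genes of IL-10, its receptor and its signal, 3 rose, Il10 included, and 3 fell, with a median of -0.15. The shares over all genes were 17% higher and 15.9% lower. Il10rb, the receptor chain shared with other cytokines, fell by 0.52 (SE 0.12, limma adjusted p = 0.00478). Il10ra, the chain that binds IL-10, rose by 0.44 by its brightest probe set (SE 0.12, limma adjusted p = 0.0147), while its other probe sets read -0.19 and -0.17. The Il10ra call was lost when its probe sets were averaged (0.02, limma adjusted p = 0.899), and when control replicate 2 (0.35, limma adjusted p = 0.0682) or USP7-titled replicate 3 (0.38, limma adjusted p = 0.0522) was left out. Bcl3, a nuclear cofactor of NF-kappaB that IL-10 can induce, rose by 0.43 (SE 0.07, limma adjusted p = 0.000687).

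Of 14 measured transcription factors known to bear on Il10, 7 rose and 3 fell, with a median of 0.26 against -0.05 over all genes. Among all genes 17% rose and 15.9% fell. Tbx21 (T-bet) rose by 1.40 (SE 0.11, limma adjusted p = 4.09e-06) and Nfil3 by 0.90 (SE 0.14, limma adjusted p = 0.000468). Bach2, which represses effector genes, fell by 1.07 (SE 0.13, limma adjusted p = 6.72e-05), and Foxp3 fell as given above. The other fall was Stat3, at -0.20 (SE 0.07, limma adjusted p = 0.0433). Stat3 is also a fall in the IL-10 and IL-12 lists above, as is Jak1. The Il10 regulator list had 2 falls under median centring or spike scaling and with any array but control replicate 3 left out. It had 4 falls without control replicate 3.

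Penk, which ranked among the brighter probe sets, rose by a small amount. Controls read 10.39, 10.41 and 10.41, and USP7-titled arrays 10.63, 10.79 and 10.66. The control SD was only 0.01, against 0.08 in USP7-titled arrays, and the groups lay 0.22 apart. The change was 0.29 (SE 0.07, 95% interval 0.13 to 0.45), or 1.22-fold (limma adjusted p = 0.00992). It was 0.45 under spike scaling (limma adjusted p = 0.00370), and its weakest call came without USP7-titled replicate 2 (0.24, limma adjusted p = 0.0468). Of all genes, 37.1% showed a larger change in either direction.

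Of 19 measured genes that encode, process or sense opioid peptides, Penk included, 5 rose, 1 fell and 13 gave no call, a share called close to the 32.9% of all genes; the median was 0.03. Ctsl, a protease able to cut proenkephalin, rose by 0.71 (SE 0.16, limma adjusted p = 0.00476), and Dpp3, a peptidase that degrades enkephalins, by 0.43 (SE 0.12, limma adjusted p = 0.0189). The other Dpp3 probe set read 0.32 and did not pass (limma adjusted p = 0.0826). The carboxypeptidase Cpe, which trims the peptides, was at 0.55 (SE 0.18, limma adjusted p = 0.0333), and Scg5, a chaperone of the convertase Pcsk2, at -0.69 (SE 0.18, limma adjusted p = 0.0121). A second, very dim Cpe probe set read 0.23 and did not pass (limma adjusted p = 0.159). Cpe also lost its call with probe sets averaged or with no eBayes trend. The Dpp3 call was lost without control replicate 1, USP7-titled replicate 2 or USP7-titled replicate 3 (limma adjusted p = 0.0521 to 0.0856), that of Cpe without control replicate 1, control replicate 2, USP7-titled replicate 2 or USP7-titled replicate 3 (0.0518 to 0.145), and that of Scg5 without control replicate 1 or control replicate 3 (0.0516 to 0.0543). The rises were 3 without control replicate 1, control replicate 2, USP7-titled replicate 2 or USP7-titled replicate 3, and the fall was lost without control replicate 1 or control replicate 3.

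**Figure D4:**
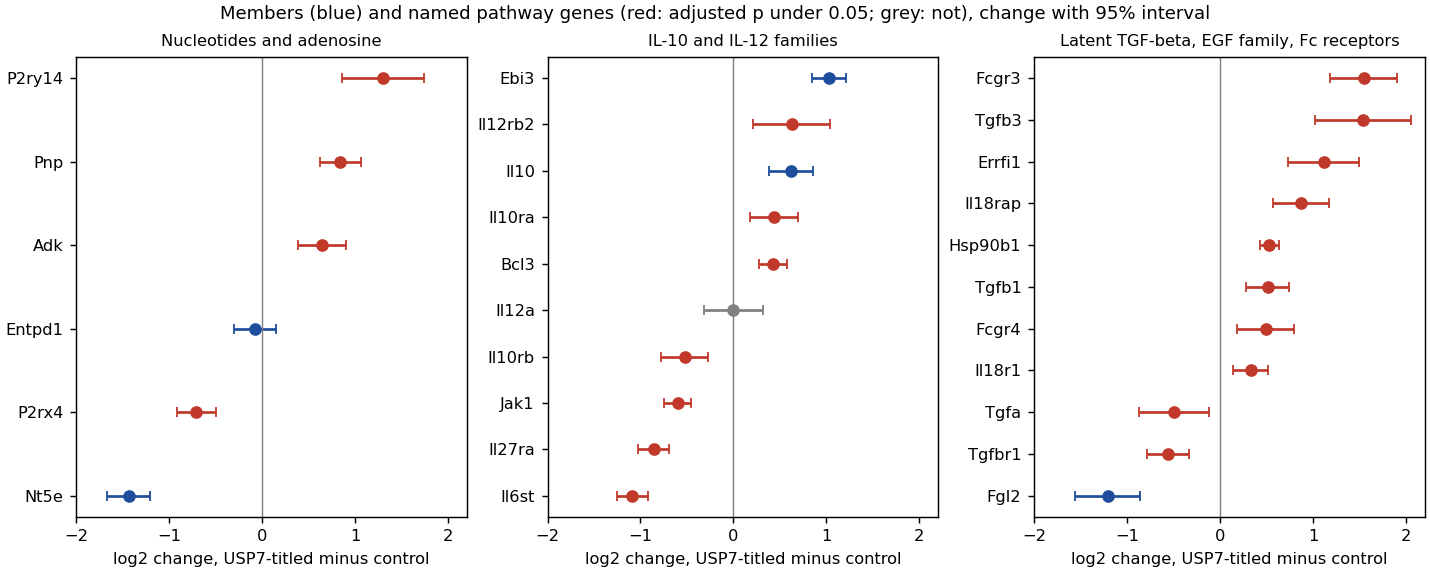
Log2 change with 95% interval (limma over all genes, 3 arrays per group), in 3 panels by pathway. Blue marks the measured mediators except Penk, which is not drawn. Red (adjusted p under 0.05) and grey (not) mark named genes of the nucleotide, IL-10 receptor, IL-12, latent TGF-beta, EGF and Fgl2 lists. Nt5e (-1.44) lies below P2rx4 (-0.71), Ebi3 (1.03) stands opposite Il6st (-1.09) and Il27ra (-0.86), and Fgl2 (-1.21) lies opposite Fcgr3 (1.55).

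The partners of the 2 unmeasured mediators were measured. For GARP, which holds latent TGF-beta on the Treg surface, 16 genes were measured. Of these 4 rose and 2 fell (over all genes 17% and 15.9%), with a median of 0.03. Tgfb1, the cytokine itself, had group means of 10.54 ± 0.23 and 11.05 ± 0.08 (SD, n = 3 each) and rose by 0.51 (SE 0.10, limma adjusted p = 0.00295). Hsp90b1, the chaperone gp96 that GARP needs to reach the surface, rose by 0.53 (SE 0.05, limma adjusted p = 8.83e-06). The receptor chain Tgfbr1 fell by 0.56 (SE 0.10, limma adjusted p = 0.00141), and its other probe sets fell by 0.63 and 0.79. Tgfb3 rose by 1.54 (SE 0.24, limma adjusted p = 0.000438) from a control mean at the 10.6th percentile of brightness.

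For amphiregulin, a growth factor that acts on the EGF receptor, 17 genes of the EGF family and its context were measured. Of these 4 rose and 1 fell (over all genes 17% and 15.9%), with a median of 0.10. Errfi1, a feedback inhibitor of the EGF receptor, rose by 1.11 (SE 0.17, limma adjusted p = 0.000492). Its other probe set read 0.55 and did not pass (limma adjusted p = 0.0634). Il18rap and Il18r1, the chains of the IL-18 receptor, a receptor that can drive amphiregulin in Treg, rose by 0.87 (SE 0.14) and 0.33 (SE 0.09), with limma adjusted p = 0.00049 and 0.0117. Tgfa, a sister growth factor, was at -0.49 (SE 0.17, limma adjusted p = 0.0478), with groups that overlapped. Its call was lost in 11 of 16 alternatives, among them leaving out any array but USP7-titled replicate 1, at a limma adjusted p of up to 0.161.

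Of 16 other measured suppressive genes of Treg, 4 rose and 7 fell, with a median of -0.04. The falls include Ctla4, Il2ra and Tnfrsf18, which also count among the Treg and T cell markers below. The rises include Tgfb1, given above with GARP. Over all genes 17% rose and 15.9% fell. Under spike scaling 5 of the 16 rose and 4 fell. The protease Gzmb rose by 3.29 (SE 0.09), the galectin Lgals1 by 0.81 (SE 0.03), the semaphorin receptor Nrp1 fell by 1.11 (SE 0.08) and the integrin Itgae by 0.83 (SE 0.11). Each passed, with the highest limma adjusted p at 0.000168, for Itgae.

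For each mediator the gene with the most similar profile over the 6 arrays was sought among genes brighter than the median gene. For Nt5e it was Ccni, cyclin I (Pearson's r = 0.999), which changed by only -0.19. For Fgl2 it was the cyclic AMP phosphodiesterase Pde7a (r = 0.998, change -0.56), and for Entpd1 the phosphatase Ptpre (r = 0.976, change -0.17, limma adjusted p = 0.354). For Il10 it was the acyltransferase Lpgat1 (r = 0.999, change 0.78), for Ebi3 the membrane protein gene Myadm (r = 0.999, change 2.26) and for Penk the NF-Y subunit Nfyb (r = 0.997, change 0.48). Pearson's r follows the shape of a profile and not its size, and with 2 groups of 3 arrays the group difference dominates it: 485 genes had an r above 0.95 with Nt5e, 688 with Ebi3 and 10 with Entpd1.

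Several mediators are also made by other cells, among them Fgl2 by macrophages and Ebi3 by B cells and antigen-presenting cells. Beside the list counts that follow, 17% of all genes were called higher and 15.9% lower. Macrophage and neutrophil markers rose in 16 of 26 measured genes and fell in 2, with summed linear levels of 10614 to 11451 over the control arrays and 14203 to 15993 over the others. B cell and plasma cell markers rose in 6 of 16 and fell in 0 by limma (also 0 at an unadjusted p under 0.05; the sums were 4875 to 4998 and 6003 to 7014), with the rises including Ms4a1 (0.998) and the class II gene H2-Eb1 (0.91), while Cd79a read -0.29 (limma adjusted p = 0.123). CD8 T and NK cell markers rose in 6 of 16 and fell in 1 (6710 to 6900 and 17177 to 17815), dendritic cell markers rose in 5 of 12 and fell in 3 (7462 to 7924 and 6736 to 7603), and 0 of 7 platelet markers passed by limma (2 were lower at an unadjusted p under 0.05, and 1 passed with probe sets averaged or with no eBayes trend; 769 to 804 and 684 to 744). The CD8 T and NK list holds Gzmb and Prf1, which are also counted among the suppressive genes above. Gzmb had group means of 9.35 and 12.64 and so weighs heavily in the linear sums. By name the list also shares Fcer1g and Tyrobp with the macrophage list. Without control replicate 1 or control replicate 3 the CD8 T and NK list had 2 falls, without USP7-titled replicate 1 the B cell list had 1, and the dendritic list had 3 rises when control replicate 1, control replicate 3, USP7-titled replicate 1 or USP7-titled replicate 2 was left out. Treg and T cell markers fell in 7 of 11 and rose in 0 by limma (also 0 at an unadjusted p under 0.05), with sums of 70815 to 72304 and 58031 to 58480. Under spike scaling 2 of them fell and 1 rose, with no eBayes trend 2 fell, and 4 fell without control replicate 2, USP7-titled replicate 2 or USP7-titled replicate 3. The Treg and T cell list holds Foxp3, bright in controls, which changed by -5.98 and so weighs heavily in the fall of the linear sums. The median change of this list was -0.12. Cell cycle genes rose in 18 of 19, with a median change of 2.66 and sums of 12780 to 13607 and 46116 to 46824. No marker is at 0 on this scale and no detection call was analysed. The part of other cell types, of the cell cycle and of sex in the changes of the mediators was not tested.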

How the data were processed

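Biotin-labelled RNA amplified from 100 ng of total RNA (per the labels) was hybridised to 6 arrays. The deposited values are log2 expression per probe set; the base was read from their range of 2.21 to 14.47 over gene probe sets. The sources used here do not give summarisation, normalization or genome build. No background or detection value was analysed, so changes at low signals may be compressed. Of 22690 probe sets, 64 controls were set aside, and 20380 had a single symbol in the platform annotation. They report 12393 genes, each by its brightest probe set. No further normalization was applied. Groups came from sample titles.

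The groups were compared by limma (version 3.58.1, R 4.3.3; lmFit, eBayes with trend; two-sided, Benjamini-Hochberg over all 12393 genes, or 22626 gene probe sets for second probe sets, threshold 0.05). On simulated data for this comparison (12393 genes, 200 changed) it recovered 40.3% of changes of 0.5, 82.1% of 1 and 97.0% of 2 on the log2 scale. The simulated noise was independent for each value. In the real data 4078 genes were called, far more than 200, so these rates need not hold there. Differences of 2 genes within arrays were tested by exact permutation over arrays. The members, gene lists and tests were chosen with earlier results of these data known. From each pathway list up to 4 called genes with the largest change were named. Other names serve as markers, partners, genes shared by lists or most similar profiles. Cd4, Cd3e, Ms4a1, H2-Eb1 and Cd79a were picked from marker lists, and Xist and Eif2s3y added, after values were seen. Promoter sequences are RefSeq's (GRCm38.p6; 4 of the 6 measured members matched). The number of arrays limits precision: the median residual SD was 0.136.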

Additional observations from a re-analysis of the deposited data

How the results depend on the processing

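The calls of Nt5e, Fgl2, Ebi3, Il10 and Penk kept their direction and their side of the threshold in all 17 alternatives, and Entpd1 passed in none: quantile normalization, median centring, spike scaling, leaving out the dimmest 40% of probe sets, averaging probe sets, array weights, a replicate block, eBayes robust or with no trend, leaving out genes on X and Y, a threshold of 0.01, and leaving out each array. Over these the change ran from -1.54 to -1.28 for Nt5e, -1.35 to -1.05 for Fgl2, 0.98 to 1.19 for Ebi3, 0.58 to 0.78 for Il10, 0.24 to 0.45 for Penk and -0.12 to 0.08 for Entpd1. The probe set counts (6 of 8) held in 16. With the replicate block 5 members were again called, 2 lower and 3 higher, and 4059 genes against 4078. Deviations of same-numbered arrays correlated at 0.08, -0.06 and 0.09. With 3 arrays per group, such correlations cannot show whether the numbers pair the samples. For Nt5e minus Entpd1 the blocked shift was -1.36, with an exact sign-flip p of 0.25, the smallest 3 pairs allow. The planned difference of Ebi3 minus Il12a (1.03) is not read, since Il12a was dim and the value repeats the Ebi3 change. The comparison of Lrrc32 with Tgfb1 was not run, since no probe set names Lrrc32. Alternatives for named pathway genes and list counts were added after seeing the data; no called gene changed direction. Signal over background is unknown, which limits the dim genes.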
